A study of Mus musculus with 24 samples.

Results

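Liver RNA of mice with severe acute pancreatitis (SAP) was compared with liver RNA of mice with non-severe acute pancreatitis (AP). The disease is an inflammation of the pancreas that, when severe, also injures distant organs. The comparison used 16 of the 24 liver libraries deposited, 8 labelled SAP and 8 labelled AP, chosen by their titles and disease labels. The remaining 8 libraries, from healthy controls (Con), give a level to read the other groups against. All groups were wild-type Balb/c mice aged 6 weeks, with no further allele or agent named, and the whole liver with all its cell types was sampled. The labels state neither the means of inducing pancreatitis nor its duration. They speak of repeats without saying that each library came from its own mouse, so the spread behind each p-value is that between libraries and may be technical, and "liver" stands for a library below.

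The values are TPM, the length-corrected share of each gene among all transcripts of a library, scaled to 1 fixed total, with no record of sequencing depth. Libraries summed to 986423 to 993642 TPM and listed 17140 to 18565 genes above 0, and the 10555 of 55536 entries whose average across the 24 libraries reached 1 TPM were tested. Genes that define hepatocytes were abundant in all groups, although most of them differed between SAP and AP livers, as counted with the marker lists below. Albumin (Alb), the main plasma protein made by hepatocytes, was at 12449.7 to 21390.2 TPM (median 16666) in SAP livers, against 12467 to 21293 TPM (median 15435) in AP livers and 13702 to 17641 TPM (median 15126) in controls. Of 15 genes of exocrine pancreas 14 were too low to test, with no SAP liver above 0.46 TPM and no AP liver above 0.41 TPM for any of them. Differences below are SAP minus AP on the log2(TPM + 1) scale with their standard error, a scale that understates changes of genes at low levels. A gene is said to have risen or fallen in SAP where the limma test, adjusted over all genes by the Benjamini-Hochberg method, gave a p under 0.05.

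The liver answers inflammation elsewhere in the body with the acute-phase response. Cytokines such as interleukin-1, tumour necrosis factor and interleukin-6 reach hepatocytes and the resident macrophages, called Kupffer cells, and act through the transcription factors NF-kB, STAT3 and the C/EBP proteins. Secreted defence proteins such as serum amyloid A and fibrinogen are then made at high rates, while albumin, carrier proteins and many metabolic enzymes are made less, which classes them as negative acute-phase genes. The secretory load is handled by chaperones of the endoplasmic reticulum, whose genes are controlled by the unfolded protein response.

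SAP and AP livers differed in most of the genes measured. Of 10555 genes 7607 (72.1%) passed the test, 4332 (41.0%) higher and 3275 (31.0%) lower in SAP. Every SAP liver lay above every AP liver in 2323 genes (22.0%) and below every AP liver in 1609 genes (15.2%). A difference of at least 2 on the log2 scale was reached by 477 higher genes (4.52%) and 418 lower genes (3.96%). Among the 785 genes with a mean over 100 TPM, 206 rose and 404 fell, whereas among the 4591 genes of 2 to 10 TPM 2143 rose and 1163 fell. The higher genes had a median transcript length of 3237 bases, the lower genes 2401.5 bases and the others 2919 bases, and whether length bears on the calls was not tested beyond the alternative given with the other settings. The filter admitted 799 genes through the SAP livers alone, with a mean under 1 TPM over AP and control livers, and 732 of these rose.

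Because TPM are shares of a fixed total, the direction of small differences depends on the scaling. The median difference over all genes was 0.13 (quartiles -0.61 and 0.80), and it was -0.10 after each library was centred on its median, which left 3708 genes higher and 4278 lower, or 46.4% of calls upward against 56.9%. The composition of the SAP libraries had shifted towards few transcripts. The genes of serum amyloid A together held 9.52 ± 1.98% of TPM in SAP livers and 0.731 ± 0.366% in AP livers (SD, n = 8 each), and the 3 fibrinogen chains 3.90 ± 1.07% in SAP livers and 0.206 ± 0.0725% in AP livers. Transcripts of the mitochondrial genome took 4.46 ± 1.02% of TPM in SAP livers and 10.9 ± 1.996% in AP livers. In all 3 measures the groups did not overlap (exact permutation test, two-sided, p = 0.000155, the smallest the groups allow, and adjusted p = 0.000466 over 9 measures). Major urinary proteins, which male mouse livers secrete in bulk, held 13.8 ± 3.06% in SAP and 14.4 ± 2.05% in AP livers, a difference within the spread between livers (exact permutation p = 0.680).

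**Figure D1:**
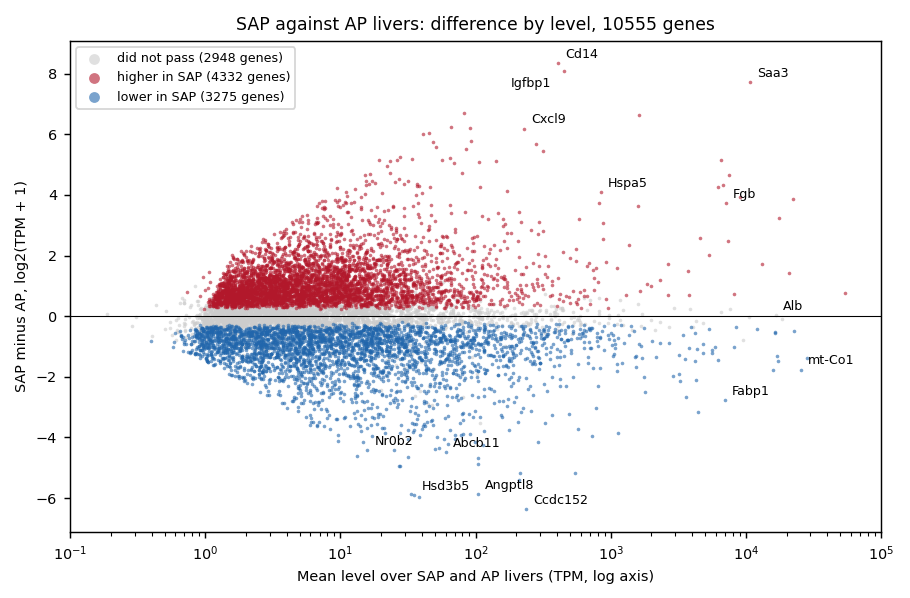
Difference between SAP and AP livers (SAP minus AP, log2 scale, vertical axis) against the mean level over both groups (TPM, logarithmic horizontal axis), 1 point per gene. Red points are the 4332 genes higher in SAP, blue points the 3275 lower genes and grey points the 2948 that did not pass; Cd14 and Igfbp1 stand at the top and Ccdc152 at the bottom.

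The libraries of SAP livers were less alike than those of AP livers. Across genes, which are not independent replicates, log2 levels correlated with r of 0.924 to 0.974 between SAP libraries, 0.940 to 0.973 between AP libraries and 0.747 to 0.850 between a SAP and an AP library. The spread of log2 levels was larger in SAP than in AP livers for 7775 genes (73.7%), with a median SD of 0.369 in SAP and 0.246 in AP. On principal components of the 16 libraries the first (64.9% of the variance) parted SAP from AP. The second (9.15%) placed SAP 21, 22, 24 and 25 at 18.7 to 41.1 and SAP 26 to 29 at -22.2 to -40.8, and the labels name nothing that parts these libraries. Without SAP 21 to 25 the test called 4776 genes higher and 2627 lower, and without SAP 26 to 29 it called 3279 higher and 3810 lower, or 64.5% and 46.3% of calls upward. Among genes higher in SAP, SAP 26 to 29 all lay above SAP 21 to 25 in 947 and all below in 176. Among genes lower in SAP these numbers were 1005 and 222. A mean with SD over SAP livers does not show such a separation. Where a call or a list's count turned on either set, values without that set are given beside it.

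The largest rises were led by Cd14, Igfbp1 and Saa3. Cd14, the co-receptor that hands bacterial lipopolysaccharide to Toll-like receptor 4, was at 460.1 to 1317 TPM (median 794) in SAP livers, against 0.96 to 2.41 TPM (median 1.41) in AP livers and 0.47 to 15.2 TPM (median 1.02) in controls. It rose by 8.35 ± 0.33 on the log2 scale (limma adjusted p = 7.20e-17), and the lowest SAP liver stood above every AP and control liver. Igfbp1, which binds insulin-like growth factors and is made by the liver in fasting and stress, had 256 to 1939 TPM (median 458) in SAP livers, against 0.37 to 4.49 TPM (median 1.44) in AP livers and 0.48 to 3.62 TPM (median 1.82) in controls. Its rise of 8.09 ± 0.39 held in every SAP liver, although SAP livers differed among themselves by several fold. Saa3, a serum amyloid A gene made in liver and macrophages, had 13389 to 32012 TPM (median 20573) in SAP livers, against 34.4 to 557 TPM (median 89.8) in AP livers and 10.5 to 1033 TPM (median 58.5) in controls, a rise of 7.71 ± 0.65. AP and control livers overlapped for Saa3, while no SAP liver came near them.

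Secreted regulators of inflammation followed. Il1rn, the antagonist of the interleukin-1 receptor, was at 106 to 254 TPM (median 157) in SAP livers, against 0.16 to 0.89 TPM (median 0.48) in AP livers. Cxcl9, a chemokine that attracts T cells and is induced by interferon-gamma, had 314 to 574 TPM (median 442) in SAP livers, against 1.26 to 10.7 TPM (median 4.53) in AP livers. Cxcl1, a chemokine that attracts neutrophils, had 280.4 to 798 TPM (median 586) in SAP livers, against 1.75 to 33.9 TPM (median 9.52) in AP livers. For all 3 genes every SAP liver exceeded every AP liver, and the differences were 6.69 ± 0.24, 6.19 ± 0.41 and 5.69 ± 0.47. Serpina3h, one of a cluster of related serine protease inhibitors, had 102 to 237 TPM (median 193) in SAP livers, against 0.63 to 2.41 TPM (median 1.39) in AP livers, with a level that is uncertain because 24.4% of its 50-base windows occur in other genes of the cluster.

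The other large rises were inside the cell. Ier3, an immediate-early gene that modulates NF-kB and survival, had 93.0 to 182 TPM (median 130.4) in SAP livers, against 0.28 to 1.64 TPM (median 0.58) in AP livers. Cdkn1a, which encodes the cell cycle inhibitor p21, had 54.1 to 155 TPM (median 84.8) in SAP livers, against 0.26 to 1.61 TPM (median 1.21) in AP livers and overlaps another annotated gene on the opposite strand. Arrdc4, an arrestin-like protein that limits glucose uptake, had 111 to 287 TPM (median 169.6) in SAP livers, against 1.39 to 2.93 TPM (median 2.33) in AP livers. These 3 genes rose by 6.25 ± 0.18, 5.57 ± 0.28 and 5.76 ± 0.19, without overlap between the groups. Adcy1, an adenylyl cyclase best known from neurons, had 34.3 to 188 TPM (median 56.2) in SAP livers, against 0 to 0.49 TPM (median 0.04) in AP livers. In controls its highest value was 0.09 TPM, and the rise was 6.05 ± 0.28.

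**Figure D2:**
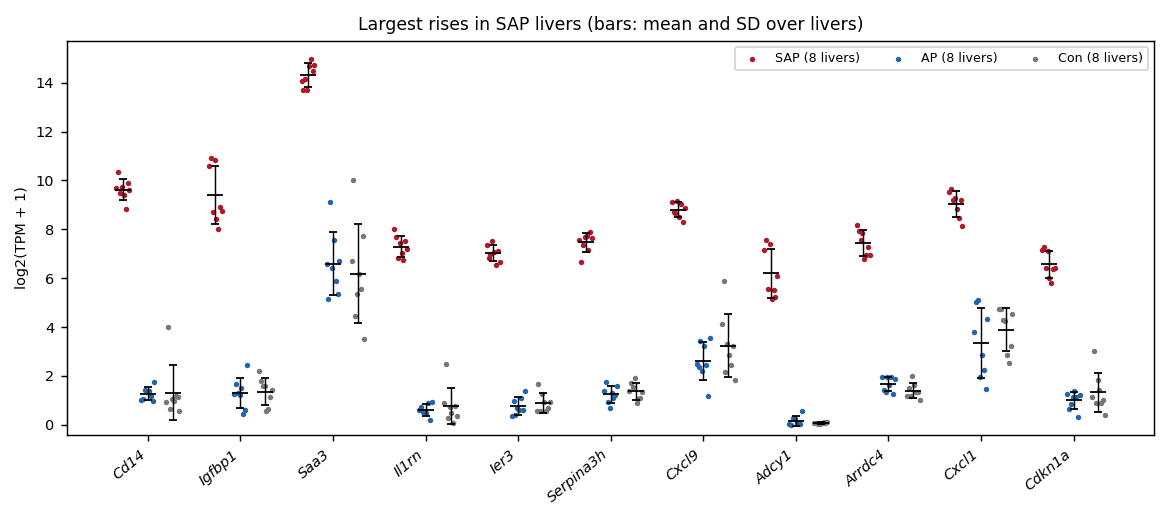
Levels of genes with the largest rises in SAP livers, as log2(TPM + 1), 1 point per liver, with SAP in red, AP in blue and controls in grey, and bars for the mean and SD of 8 livers. In each gene shown all SAP points lie above all AP points, and Igfbp1 and Adcy1 spread widely within SAP.

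Stretches of 100 bases, cut from the 250 bases before the transcription start, are shown for some genes named here, to place known control elements beside the genes that moved. The stretches of Igfbp1 and Nr0b2 run up to the start, and the others end short of it, by 4 bases in Cxcl1, 32 in Saa3, 33 in Angptl8, 74 in Il1rn and 126 in Arrdc4. They come from the RefSeq promoters of GRCm38.p6 and are given 5′ to 3′ on the strand of the gene, with the motif match in capitals. Motifs and genes were chosen after the values were seen, and a match is a description of the letters, not a site in use.
Cxcl1: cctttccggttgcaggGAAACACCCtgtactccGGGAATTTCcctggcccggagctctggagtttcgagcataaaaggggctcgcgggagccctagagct
Saa3: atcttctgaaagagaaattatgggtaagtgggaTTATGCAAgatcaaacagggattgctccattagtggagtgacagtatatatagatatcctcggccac
Igfbp1: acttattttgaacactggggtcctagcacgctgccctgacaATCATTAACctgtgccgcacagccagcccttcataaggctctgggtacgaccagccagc
Il1rn: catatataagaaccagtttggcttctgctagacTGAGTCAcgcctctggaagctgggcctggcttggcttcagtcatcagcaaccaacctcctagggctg
Arrdc4: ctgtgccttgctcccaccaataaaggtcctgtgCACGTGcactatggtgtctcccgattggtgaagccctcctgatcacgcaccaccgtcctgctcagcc
Nr0b2: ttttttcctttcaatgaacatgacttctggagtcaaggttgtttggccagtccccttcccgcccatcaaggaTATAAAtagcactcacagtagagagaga
Angptl8: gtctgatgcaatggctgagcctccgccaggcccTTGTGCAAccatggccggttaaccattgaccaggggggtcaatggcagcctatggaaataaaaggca

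The Cxcl1 stretch (chr5:90891141-90891240, plus strand) holds 2 matches to the NF-kB motif GGGNNTTTC, 1 on each strand. The Saa3 stretch (chr7:46715709-46715808, minus strand) and the Angptl8 stretch (chr9:21835377-21835476, plus strand) each hold the C/EBP motif TTGCNNAA, in a gene that rose and in a gene that fell. The Igfbp1 stretch (chr11:7197687-7197786, plus strand) holds GTTAATNAT, the motif of HNF1, a hepatocyte factor. The Il1rn stretch (chr2:24336686-24336785, plus strand) holds TGANTCA, the AP-1 motif bound by FOS and JUN. The Arrdc4 stretch (chr7:68749365-68749464, minus strand) holds the E-box CACGTG, which the glucose-sensing factor ChREBP and its relatives bind. In the Nr0b2 stretch (chr4:133553276-133553375, plus strand), a gene described with the bile acid genes below, the TATA box TATAAA lies 28 bases before the start. All motifs were searched on both strands but TATAAA, and no match overlapped another. Over the 250 bases before the start in the 27025 promoters used the NF-kB motif occurred in 3.79%, C/EBP in 9.55%, HNF1 in 0.781%, AP-1 in 6.87%, the E-box in 6.05% and TATAAA in 8.12%. Only 68.6% of the genes that rose by at least 2 and 64.1% of those that fell by at least 2 have a promoter in the table, so shares between such sets were not compared.

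The largest falls included those of a lipid regulator and of steroid dehydrogenases. Angptl8, a secreted regulator of lipoprotein lipase that feeding and insulin induce, was at 1.04 to 4.66 TPM (median 2.29) in SAP livers, against 133 to 335 TPM (median 175) in AP livers and 121 to 378 TPM (median 197) in controls. It fell by 5.87 ± 0.27 on the log2 scale (limma adjusted p = 1.29e-15), with the highest SAP liver far below the lowest AP liver. Hsd3b5, a steroid dehydrogenase of male mouse liver that growth hormone pulses sustain, had 0.03 to 0.28 TPM (median 0.125) in SAP livers, against 48.0 to 126 TPM (median 63.8) in AP livers, and 21.2% of its windows occur in related genes. Its relative Hsd3b1 had 0 to 0.39 TPM (median 0.085) in SAP livers, against 46.6 to 89.0 TPM (median 65.2) in AP livers. Keg1, which encodes an acyltransferase, had 0.05 to 0.3 TPM (median 0.19) in SAP livers, against 43.7 to 128 TPM (median 72.1) in AP livers. These 3 differences were -5.90 ± 0.17, -5.86 ± 0.13 and -5.95 ± 0.18, with no overlap between groups. Akr1c14, a steroid dehydrogenase, had 0.42 to 1.08 TPM (median 0.755) in SAP livers, against 34.7 to 76.2 TPM (median 50.3) in AP livers, and fell by 4.93 ± 0.14.

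The remaining large falls were of less studied genes. Ccdc152 had 1.75 to 7.6 TPM (median 4.04) in SAP livers, against 173 to 783 TPM (median 416) in AP livers and showed the largest fall of all (-6.37 ± 0.28). It lies opposite to Selenop, the gene of the plasma selenium carrier, and without knowledge of strand in the counting their reads cannot be told apart. Selenop itself did not pass, at 808 ± 172 TPM in SAP and 604 ± 298 TPM in AP livers (SD, n = 8 each), although it passed as a rise of 0.69 without AP 19 (limma adjusted p = 0.0264) and of 1.16 without AP 15, 17, 18 and 19 (adjusted p = 0.00120). Ctdspl2, a phosphatase-like gene, had 5.41 to 33.2 TPM (median 9.04) in SAP livers, against 347 to 469 TPM (median 424) in AP livers. Apol11b, an apolipoprotein L gene, had 0 to 44.5 TPM (median 5.92) in SAP livers, against 50.5 to 746 TPM (median 375) in AP livers, and its SAP livers spread from 0 upward. Tcea3, a transcription elongation factor, had 0.55 to 3.81 TPM (median 1.16) in SAP livers, against 45.3 to 80.7 TPM (median 58.6) in AP livers. Fam221b had 0 to 0.15 TPM (median 0.04) in SAP livers, against 12.7 to 38.7 TPM (median 28.8) in AP livers. The differences were -5.17 ± 0.25, -5.40 ± 0.60, -4.63 ± 0.22 and -4.60 ± 0.19, and Ctdspl2, Fam221b and Keg1 overlap other genes on the opposite strand. The 5S ribosomal RNA genes n-R5s144 and n-R5s111 also fell, but their groups overlapped and all of their windows occur in other 5S genes. In SAP livers n-R5s144 was listed at 0 throughout, and n-R5s111 was at 104.9 TPM in SAP 27 and 0 in the others. The call for n-R5s111 ended without SAP 21 to 25 (limma adjusted p = 0.0636).

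**Figure D3:**
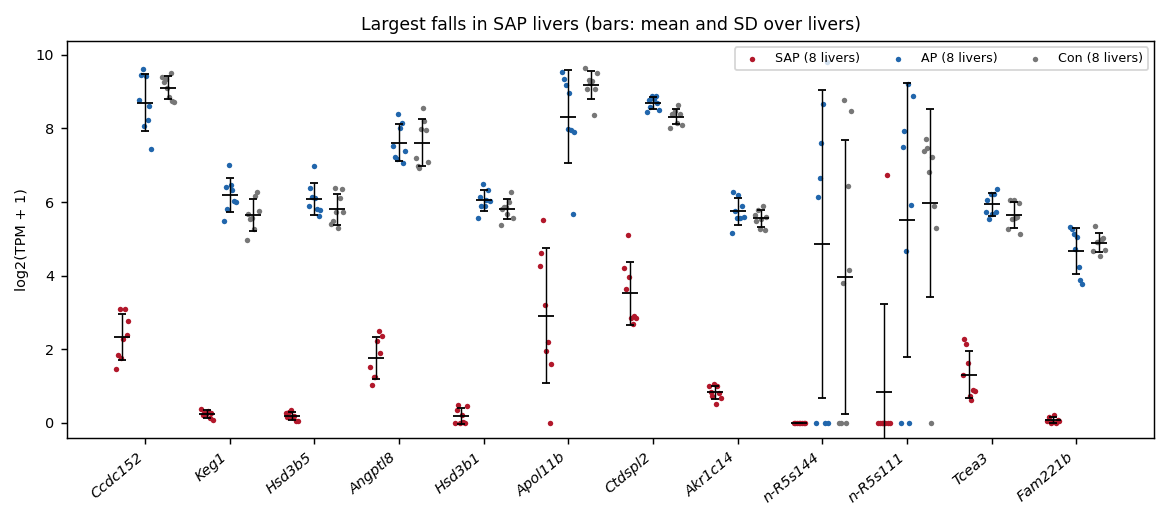
Levels of the 12 genes with the largest fall in SAP livers, as log2(TPM + 1), 1 point per liver, with SAP in red, AP in blue and controls in grey, and bars for the mean and SD of 8 livers. All SAP points lie below all AP points except for the 5S genes n-R5s144 and n-R5s111.

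Lists of genes were described by how many measured members, meaning those among the 10555 genes tested, rose or fell, to be read against the 41.0% of all genes that rose and the 31.0% that fell, and by their median difference, to be read against 0.13. Acute-phase proteins stood far from these values. Of 28 measured members 25 rose, 0 fell and 3 did not pass, with a median of 2.01. Beside Cd14 and Saa3, the 3 fibrinogen chains, products of neighbouring genes that form the clotting protein, rose. Fga had 7058 to 20785 TPM (median 11406) in SAP livers, against 171 to 768 TPM (median 346) in AP livers. Fgb had 9449 to 18849.7 TPM (median 12382) in SAP livers, against 588 to 1609.8 TPM (median 965) in AP livers. Fgg had 8063 to 19161 TPM (median 13099.6) in SAP livers, against 474 to 1185 TPM (median 578) in AP livers. Each SAP liver lay above each AP liver for all 3 chains, with differences of 5.17 ± 0.30, 3.73 ± 0.21 and 4.32 ± 0.21. In the tested genes given by their ranges here and below the SAP and AP livers did not overlap, except where an overlap is stated. Lcn2, which withholds iron from bacteria, had 12273 to 16972 TPM (median 14085) in SAP livers, against 335 to 946 TPM (median 584) in AP livers. Haptoglobin (Hp), which binds free haemoglobin, had 30178 ± 2617 TPM in SAP and 11506 ± 2757 TPM in AP livers. The iron hormone hepcidin (Hamp), induced by interleukin-6 in other settings, did not pass, at 7473 ± 5058 TPM in SAP and 5582 ± 2046 TPM in AP livers, a difference of 0.13 with a 95% interval of -0.87 to 1.13. Hamp was at 10471 to 13106 TPM in SAP 21 to 25 and at 2335 to 3700 TPM in SAP 26 to 29. Without SAP 26 to 29 it passed as a rise of 1.19 (limma adjusted p = 0.0437).

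Cytokines, receptors and their antagonists rose in 20 of 28 measured genes and fell in 5, with a median of 1.49. Of these members 9 were admitted through the SAP livers alone, and all 9 rose. Under a filter set on AP and control livers alone, which does not admit genes through SAP, 11 rose and 5 fell, with a median of 0.70. Csf3, which encodes the neutrophil growth factor G-CSF, was at 4.1 to 93.3 TPM (median 22.3) in SAP livers, against 0 to 0.14 TPM (median 0.015) in AP livers. Its AP level was close to 0 in every liver and every SAP liver exceeded it. Il1r1, the signalling receptor for interleukin-1, had 56.4 to 95.2 TPM (median 76.6) in SAP livers, against 1.11 to 6.51 TPM (median 3.49) in AP livers, a rise of 4.08 ± 0.22, while its partner Il1rap fell, at 15.1 ± 2.2 TPM in SAP livers, against 31.2 ± 3.54 TPM in AP livers. Il10, an anti-inflammatory cytokine, had 1.58 to 10.5 TPM (median 4.74) in SAP livers, against 0 to 0.23 TPM (median 0.125) in AP livers. The activin and inhibin subunit Inhbb rose (means of 8.79 TPM in SAP and 0.149 TPM in AP livers) and Inhbc, a subunit made mainly in liver, fell, with 6.97 to 19.0 TPM (median 12.5) in SAP livers, against 72.0 to 106 TPM (median 83.9) in AP livers. Il18, Il15 and Inhba were the other members that fell, Inhba not without SAP 21 to 25 (limma adjusted p = 0.109).

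Chemokines rose in 17 of 23 measured genes and fell in 1, with a median of 1.91. With the filter on AP and control livers 11 rose and 1 fell (median 1.66). The values that follow are under the main filter. The median was 1.10 without SAP 21 to 25 and 2.99 without SAP 26 to 29. Ccl5, which attracts T cells and monocytes, had 121 to 334 TPM (median 144) in SAP livers, against 1.7 to 3.63 TPM (median 2.85) in AP livers. Ccl2, the main attractant of monocytes, had 5.93 to 187 TPM (median 59.9) in SAP livers, against 0.18 to 3.39 TPM (median 1.21) in AP livers. Cxcl2, which attracts neutrophils, had 6.73 to 227 TPM (median 37.3) in SAP livers, against 0.12 to 1.63 TPM (median 0.39) in AP livers. Cxcl14 had 6.07 to 36.5 TPM (median 19.5) in SAP livers, against 0.27 to 0.76 TPM (median 0.43) in AP livers. Their differences were 5.51 ± 0.34, 4.30 ± 0.54, 4.46 ± 0.52 and 3.75 ± 0.25. The single chemokine that fell was Cxcl12, a constitutive chemokine that retains leukocytes in tissue, with 12.0 to 25.3 TPM (median 17.7) in SAP livers, against 36.9 to 72.5 TPM (median 51.0) in AP livers.

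Genes of signalling downstream of the receptors rose, their feedback inhibitors among them. In the list of NF-kB subunits and feedback genes 22 of 24 measured members rose and 0 fell (median 1.70), with 19 risen under the filter on AP and control livers. Zc3h12a, an RNase that degrades cytokine transcripts, had 9.02 to 36.3 TPM (median 27.7) in SAP livers, against 0.27 to 0.91 TPM (median 0.71) in AP livers. Tnfaip3 (A20), an enzyme that shuts down NF-kB signalling, was at 4.46 to 25.9 TPM (median 17.0) in SAP livers, against 0.08 to 0.32 TPM (median 0.105) in AP livers. Selp, the P-selectin that leukocytes roll on, had 12.4 to 35.0 TPM (median 20.9) in SAP livers, against 0.29 to 0.94 TPM (median 0.675) in AP livers. Tnip2, a partner of A20, had 7.06 to 14.5 TPM (median 10.8) in SAP livers, against 0.33 to 1.3 TPM (median 0.97) in AP livers. In the Toll-like list 10 of 13 rose and 0 fell (median 0.98), but 4 of these were admitted through the SAP livers alone, and under the filter on AP and control livers 6 rose (median 0.68). Irak3, an inhibitor of the pathway, had 12.0 to 23.5 TPM (median 13.1) in SAP livers, against 0.06 to 0.23 TPM (median 0.145) in AP livers. The kinase Map3k8 and the adaptor Traf6 both rose, Map3k8 with means of 5.25 TPM in SAP and 0.34 TPM in AP livers and Traf6 with means of 3.61 TPM in SAP and 0.772 TPM in AP livers. The kinase Irak4 and the co-receptor Ly96 did not pass (-0.11 and 0.06).

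Of 16 genes of interleukin-6, STAT3 and C/EBP signalling 12 rose and 2 fell (median 1.52), with 10 risen under the filter on AP and control livers. The feedback inhibitor Socs3 had 41.1 to 84.0 TPM (median 52.1) in SAP livers, against 0.96 to 6.47 TPM (median 4.16) in AP livers. Socs1 had 4.12 to 16.3 TPM (median 13.2) in SAP livers, against 0.18 to 0.97 TPM (median 0.51) in AP livers. Stat3 itself averaged 49.2 ± 15.7 TPM in SAP and 7.42 ± 2.12 TPM in AP livers. Cebpd, the C/EBP member of acute inflammation, had 16.3 to 37.8 TPM (median 21.3) in SAP livers, against 0.77 to 1.99 TPM (median 1.42) in AP livers, and it overlaps Spidr on the opposite strand. Cebpa, the member of the resting hepatocyte, fell to 47.5 ± 22.1 TPM in SAP livers, against 74.7 ± 11.8 TPM in AP livers, a call that ended without SAP 26 to 29 (limma adjusted p = 0.216). Immediate-early genes, which respond within minutes to growth and stress signals, rose in 20 of 22 and fell in 0 (median 1.89). Of these 6 were admitted through the SAP livers alone, and under the filter on AP and control livers 14 rose (median 1.74). Egr1 had 14.2 to 36.6 TPM (median 25.2) in SAP livers, against 0.07 to 1.04 TPM (median 0.275) in AP livers. Btg2 had 6.04 to 47.8 TPM (median 11.6) in SAP livers, against 0.15 to 0.9 TPM (median 0.6) in AP livers. Klf6 had 4.39 to 14.8 TPM (median 8.12) in SAP livers, against 0.49 to 0.83 TPM (median 0.61) in AP livers, and in all 3 the groups did not overlap.

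Interferon-stimulated genes did not share this rise. Of 29 measured members 2 rose, 6 fell and 21 did not pass, with a median of -0.30. The antiviral gene Ifit1 had 1.85 to 8.96 TPM (median 5.7) in SAP livers, against 0.52 to 212 TPM (median 15.4) in AP livers, and fell by 2.05 ± 0.85 (limma adjusted p = 0.0348). Its neighbour Ifit3b, with 45.0% of its windows shared, fell as well, with 1.59 to 7.94 TPM (median 5.08) in SAP livers, against 0.29 to 81.0 TPM (median 14.2) in AP livers. The transcription factor Stat2 had 8.15 to 11.8 TPM (median 10.4) in SAP livers, against 10.2 to 24.4 TPM (median 21.7) in AP livers. Rsad2 (viperin), another antiviral gene, rose, with 1.32 to 61.8 TPM (median 17.3) in SAP livers, against 0.11 to 10.6 TPM (median 0.89) in AP livers, as did Ifit2. Ifit1 no longer passed without any 1 of SAP 26, 27 and 28 and AP 11, 12 and 13 (adjusted p = 0.0574 to 0.0887), and Ifit3b without AP 11, AP 12 or AP 13 (adjusted p = 0.0516 to 0.0603). In all of these genes SAP and AP livers overlapped. The result depended on the 2 sets of SAP libraries. Without SAP 21 to 25, 0 members rose and 11 fell (median -0.74), and without SAP 26 to 29, 5 rose and 1 fell (median 0.08). Single libraries moved the number of falls as well, to 2 without AP 11 or AP 12, to 3 without AP 13, SAP 26, SAP 27 or SAP 28, and to 15 without AP 18. Rsad2 gave 0.47 without SAP 21 to 25 (limma adjusted p = 0.482) and 1.37 without AP 15, 17, 18 and 19 (adjusted p = 0.145). Ifit2, at 1.13, gave -0.049 and 0.66 without these sets (adjusted p = 0.905 and 0.277). Without AP 11, 12, 13 and 16 the difference of Ifit1 was -0.08 and that of Ifit3b -0.43 (adjusted p = 0.936 and 0.603).

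Targets of interferon-gamma were split. Of 15 GTPases and their regulators 7 rose and 2 fell, or 6 fell without AP 15, 17, 18 and 19, with a median of 0.12 that changed sign with the scaling (-0.11 after median centring) and under the filter on AP and control livers (-0.01). Gbp2, a guanylate-binding protein of cell defence, had 27.5 to 92.5 TPM (median 51.2) in SAP livers, against 0.23 to 4.62 TPM (median 1.47) in AP livers, and rose by 4.35 ± 0.34. Its relative Gbp4 rose to 13.1 ± 3.34 TPM in SAP livers, against 2.19 ± 1.19 TPM in AP livers, and Gbp5 rose to 5.29 ± 2.92 TPM in SAP livers, against 0.494 ± 0.356 TPM in AP livers. Igtp, an immunity-related GTPase, instead fell, with 19.97 to 57.3 TPM (median 38.2) in SAP livers, against 17.4 to 300.1 TPM (median 148) in AP livers and overlapping groups, and it overlaps its relative Irgm2 on the same strand. The call of Igtp ended without AP 11, 12, 13 and 16 (limma adjusted p = 0.121). Of 26 genes of antigen presentation 8 rose and 3 fell, or 6 fell without AP 18 and 5 without AP 15, 17, 18 and 19, with a median of 0.13 that median centring turned to -0.10. The MHC class I genes H2-Q4, H2-Q7 and H2-Q6 all rose. H2-Q4 averaged 125 TPM in SAP and 16.2 TPM in AP livers, H2-Q7 92.7 TPM in SAP and 18.6 TPM in AP livers and H2-Q6 111 TPM in SAP and 26.1 TPM in AP livers. Their levels are uncertain because 22.0, 27.1 and 32.0% of their windows occur in related genes. B2m, the light chain of MHC class I, fell to 1629 ± 287 TPM in SAP livers, against 3007 ± 533 TPM in AP livers. Psmb9, a subunit of the immunoproteasome that overlaps Tap1 on the opposite strand, fell to 32.8 ± 16.5 TPM in SAP livers, against 88.9 ± 39.4 TPM in AP livers, and its call ended without SAP 26 to 29 (limma adjusted p = 0.167) and without AP 11, 12, 13 and 16 (adjusted p = 0.102).

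**Figure D4:**
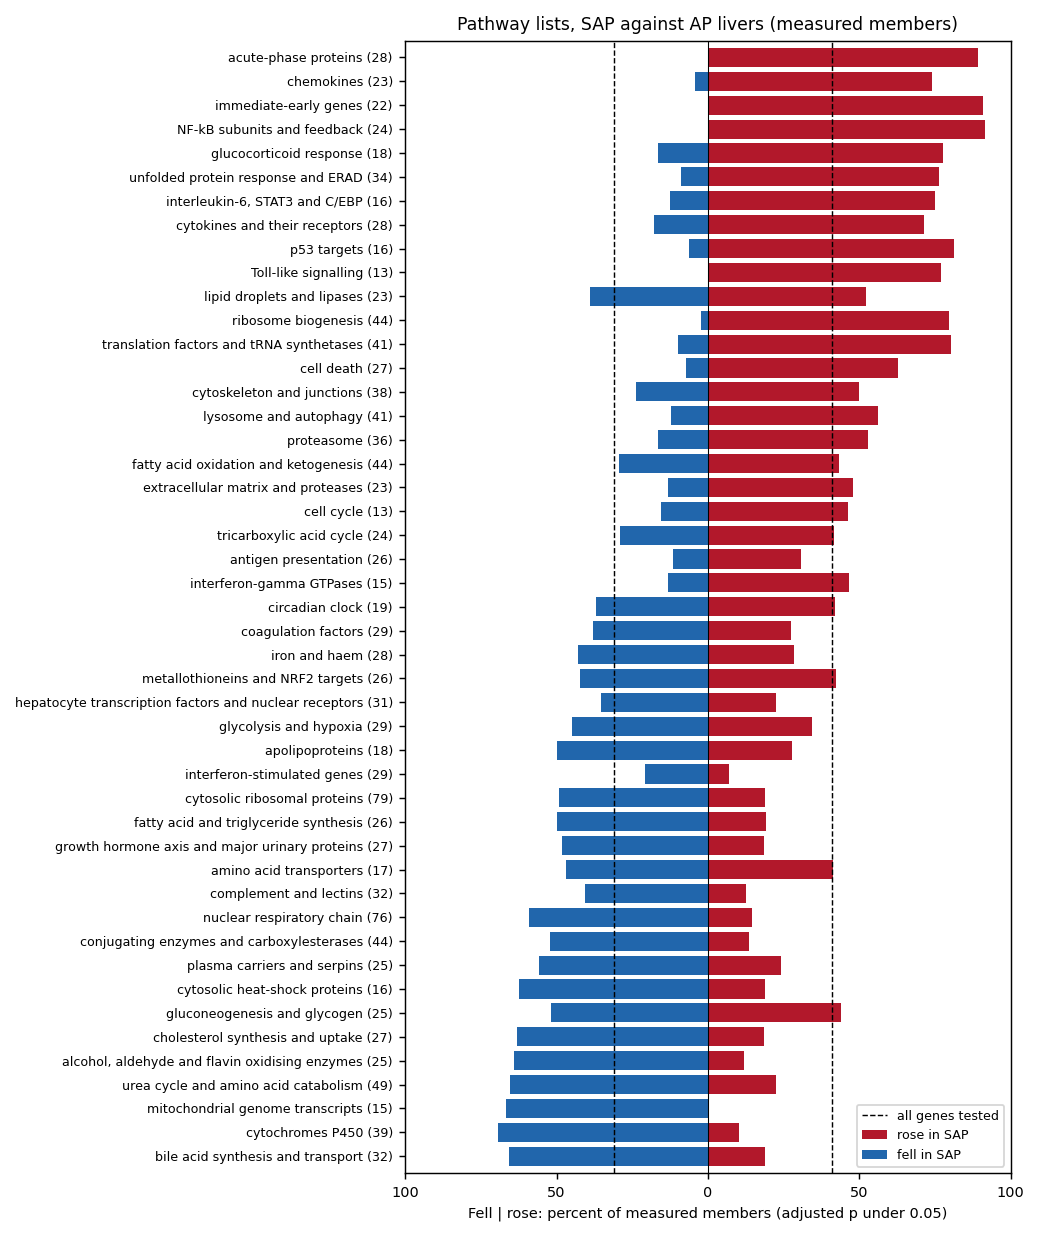
Share of measured members that rose (red, to the right) or fell (blue, to the left) in SAP livers for each pathway list, in percent, ordered by median difference, with the number measured in brackets and dashed lines at the shares of all genes tested (41.0% and 31.0%). Acute-phase, chemokine, immediate-early and NF-kB genes stand at the top, and bile acid, cytochrome P450 and mitochondrial genome lists at the bottom.

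The unfolded protein response rose in SAP livers. Of 34 measured genes of this response and of protein degradation at the endoplasmic reticulum 26 rose and 3 fell (median 1.60), with 5 fallen without SAP 26 to 29 and 23 risen under the filter on AP and control livers. Hspa5, the main chaperone of that compartment, was at 866 to 2717 TPM (median 1528) in SAP livers, against 52.8 to 187 TPM (median 87.9) in AP livers and 31.6 to 84.5 TPM (median 51.2) in controls, a rise of 4.08 ± 0.25 (limma adjusted p = 3.53e-13). Xbp1, a transcription factor of the response, had 241 to 369.9 TPM (median 279) in SAP livers, against 20.9 to 64.8 TPM (median 23.9) in AP livers. Creld2, a chaperone-like target, had 127 to 448 TPM (median 288) in SAP livers, against 21.4 to 69.0 TPM (median 30.9) in AP livers. Chac1, a glutathione-degrading enzyme induced through ATF4, had 12.6 to 44.6 TPM (median 27.7) in SAP livers, against 0.1 to 1.81 TPM (median 0.71) in AP livers. Atf4, a regulator of 1 branch of the response, rose to 205 ± 41.6 TPM in SAP livers, against 47.6 ± 9.6 TPM in AP livers. Atf6, the sensor of another branch, rose to 9.08 ± 2.23 TPM in SAP livers, against 2.02 ± 0.268 TPM in AP livers. The members that fell were the sensor Ern1 (0.799 ± 0.379 TPM in SAP and 2.59 ± 0.362 TPM in AP livers), Derl2 and Atf5, with Derl2 no longer called without SAP 21 to 25 (limma adjusted p = 0.0716). Atf5, a factor of the mitochondrial stress response, had 51.3 to 108 TPM (median 76.9) in SAP livers, against 257 to 381 TPM (median 284) in AP livers, with no overlap.

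Heat-shock genes of proteins outside the endoplasmic reticulum went the other way. Of 16 such genes, a mitochondrial chaperonin among them, 3 rose and 10 fell (median -0.58). Hsph1 fell to 1.82 ± 0.504 TPM in SAP livers, against 9.32 ± 4.5 TPM in AP livers. The small heat-shock protein Hspb1 fell to 8.02 ± 3.45 TPM in SAP livers, against 35.1 ± 16.8 TPM in AP livers, with 51.7% of its windows shared. Hspa1b fell to 0.724 ± 0.467 TPM in SAP livers, against 13.6 ± 3.95 TPM in AP livers, but 62.3% of its windows occur in its copy Hspa1a. The members that rose were the co-chaperone Bag3, with 11.0 to 39.2 TPM (median 22.7) in SAP livers, against 3.64 to 8.97 TPM (median 4.86) in AP livers, Hspa4 and the mitochondrial chaperonin Hspd1, of which 44.8% of windows are shared and whose neighbour and partner Hspe1 fell. The call of Hspd1 ended without AP 11, 12, 13 and 16 (limma adjusted p = 0.0513). The metallothioneins Mt1 and Mt2, zinc-binding proteins induced by zinc, glucocorticoids and interleukin-6, rose in every SAP liver. Mt1 had 12085 to 22235 TPM (median 16752) in SAP livers, against 200.5 to 3529 TPM (median 1206) in AP livers. Mt2 had 9095 to 15835 TPM (median 10828) in SAP livers, against 67.3 to 2489 TPM (median 833) in AP livers. Their list with targets of the antioxidant factor NRF2 was divided, with 11 of 26 risen and 11 fallen, and its median of -0.02 changed sign with the scaling. Hmox1, the haem-degrading enzyme, rose (40.1 ± 14.0 TPM in SAP and 6.22 ± 1.58 TPM in AP livers) and Gclm, a subunit of the enzyme that limits glutathione synthesis, fell (22.4 ± 3.21 TPM in SAP and 89.7 ± 13.9 TPM in AP livers). The glutathione transferases Gstm1, Gstm4 and Gstm3 fell, with 23.2% of windows shared in Gstm1 and 28.8% in Gstm3.

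Genes of growth arrest and cell death rose in part. Of 16 targets of p53 13 rose and 1 fell (median 1.05), with 10 risen under the filter on AP and control livers. Trp53inp1 had 4.16 to 103 TPM (median 17.7) in SAP livers, against 0.55 to 2.77 TPM (median 1.67) in AP livers. The nuclease Aen had 17.4 to 31.6 TPM (median 24.7) in SAP livers, against 2.29 to 4.94 TPM (median 3.85) in AP livers, beside Cdkn1a. The member that fell was Trp53 itself, at 4.21 ± 2.12 TPM in SAP and 11.7 ± 1.86 TPM in AP livers. Of 27 genes of cell death 17 rose and 2 fell (median 0.61), with 13 risen under that filter (median 0.46). Tnfrsf12a, the receptor of the cytokine TWEAK, had 107 to 285 TPM (median 215) in SAP livers, against 7.41 to 12.8 TPM (median 8.84) in AP livers. Bcl2l1, which encodes the survival protein BCL-XL, averaged 25.5 ± 8.46 TPM in SAP and 7.16 ± 1.67 TPM in AP livers. Casp4, the inflammatory caspase that senses lipopolysaccharide in the cytosol, averaged 3.77 ± 0.788 TPM in SAP and 0.669 ± 0.417 TPM in AP livers. Bik, which promotes cell death, was among those that fell. Of 13 measured cell cycle genes 6 rose and 2 fell (median 0.23, and -0.01 without SAP 26 to 29), among them Ccne1, the cyclin of entry into DNA replication, with 3.39 to 10.2 TPM (median 5.54) in SAP livers, against 0.24 to 0.85 TPM (median 0.375) in AP livers, while the proliferation gene Cdk1 did not pass (1.55 TPM in SAP and 1.38 TPM in AP livers). Of 18 genes of the glucocorticoid response, including several shared with other lists, 14 rose and 3 fell (median 1.68). Ddit4, an inhibitor of mTOR, had 9.33 to 57.1 TPM (median 16.7) in SAP livers, against 1.05 to 2.34 TPM (median 1.33) in AP livers. Tsc22d3, a classical target of the receptor, fell to 5.44 ± 2.4 TPM in SAP livers, against 17.6 ± 4.39 TPM in AP livers.

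Protein synthesis showed unequal changes of its parts. Of 44 genes of ribosome biogenesis 35 rose and 1 fell (median 0.80), and of 41 translation factors and tRNA synthetases 33 rose and 4 fell (median 0.78). Rcl1, an assembly factor of the small subunit, had 159.5 to 428 TPM (median 302) in SAP livers, against 24.4 to 45.4 TPM (median 33.0) in AP livers. Nop58, a core protein of nucleolar particles, had 12.6 to 36.9 TPM (median 20.8) in SAP livers, against 2.05 to 5.23 TPM (median 3.58) in AP livers. Eif1a had 38.6 to 67.1 TPM (median 52.2) in SAP livers, against 3.6 to 7.87 TPM (median 6.41) in AP livers. Eif6, which keeps the subunits apart, had 84.3 to 162 TPM (median 122) in SAP livers, against 13.2 to 21.3 TPM (median 16.0) in AP livers, each without overlap. Of 79 cytosolic ribosomal proteins, in contrast, 15 rose and 39 fell (median -0.31), and their summed share was 3.27 ± 0.715% of TPM in SAP and 4.17 ± 0.246% in AP livers (exact permutation p = 0.00544). This list depended on the sets of SAP libraries, with 24 risen and 22 fallen without SAP 21 to 25, and 6 and 54 without SAP 26 to 29, and 6 rose without AP 11, 12, 13 and 16. Rpl14, with 38.5% of its windows shared, fell to 166 ± 50.1 TPM in SAP livers, against 413 ± 52.6 TPM in AP livers. Rpl4, which hosts a small nucleolar RNA gene on its own strand, rose to 294 ± 91.4 TPM in SAP livers, against 99.5 ± 26.6 TPM in AP livers. Of 36 proteasome genes 19 rose and 6 fell (median 0.33), with 11 risen without SAP 26 to 29 and 2 fallen without SAP 21 to 25, and of 41 lysosome and autophagy genes 23 rose and 5 fell, or 3 fell without SAP 21 to 25 (median 0.45). Ctsl, the lysosomal protease cathepsin L, had 1201 to 2154 TPM (median 1472) in SAP livers, against 83.6 to 166 TPM (median 94.4) in AP livers. Tfeb, a transcription factor of lysosome genes, fell to 1.07 ± 0.601 TPM in SAP livers, against 7.12 ± 0.837 TPM in AP livers. Its relative Tfe3 rose to 26.3 ± 8.54 TPM in SAP livers, against 6.26 ± 1.53 TPM in AP livers. The autophagy enzyme Atg7 fell to 5.99 ± 1.35 TPM in SAP livers, against 24.1 ± 3.75 TPM in AP livers.

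Bile acid synthesis and transport had the lowest median of the pathway lists, -1.19 over 32 measured genes, of which 6 rose and 21 fell. Cyp7a1, the rate-limiting enzyme of bile acid synthesis, was at 0 to 0.22 TPM (median 0.01) in SAP livers, against 7.9 to 17.1 TPM (median 10.8) in AP livers and 3.16 to 17.7 TPM (median 6.61) in controls. It fell by 3.57 ± 0.23 (limma adjusted p = 6.45e-13), and no SAP liver reached the lowest AP liver. Abcb11, the pump that exports bile salts into bile, had 1.9 to 7.41 TPM (median 4.36) in SAP livers, against 101 to 149 TPM (median 111) in AP livers, and fell by 4.49 ± 0.18; it overlaps other annotated genes on the opposite strand. Slco1b2, an uptake transporter, had 3.42 to 9.82 TPM (median 4.97) in SAP livers, against 36.4 to 56.0 TPM (median 42.2) in AP livers. Abcc2, an exporter of conjugates, had 1.32 to 7.64 TPM (median 3.33) in SAP livers, against 21.1 to 32.6 TPM (median 29.2) in AP livers. Nr0b2 (SHP), a repressor of Cyp7a1 that the bile acid receptor FXR induces, fell too, with 0 to 0.91 TPM (median 0.44) in SAP livers, against 20.5 to 61.8 TPM (median 26.2) in AP livers. The FXR gene Nr1h4 fell to 22.6 ± 17.9 TPM in SAP livers, against 48.8 ± 7.66 TPM in AP livers. It was at 4.16 to 11.3 TPM in SAP 21 to 25 and at 29.2 to 55.4 TPM in SAP 26 to 29. The 6 members that rose included Acox2, which shortens the side chain (106 ± 44.3 TPM in SAP and 32.6 ± 10.9 TPM in AP livers). The basolateral exporter Abcc3 rose as well (93.9 ± 37.0 TPM in SAP and 53.9 ± 20.3 TPM in AP livers), but not without SAP 21 to 25 (limma adjusted p = 0.0814) or without AP 11, 12, 13 and 16 (adjusted p = 0.239).

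Drug and alcohol metabolism fell in most members. Of 39 cytochromes P450 4 rose, or 1 without SAP 21 to 25, and 27 fell (median -1.07). Cyp2a5, which oxidises coumarin and nicotine, averaged 19.8 ± 14.9 TPM in SAP and 170.2 ± 59.3 TPM in AP livers and fell, with 40.8% of its windows shared. Cyp2c23, a fatty acid epoxygenase, had 0.79 to 4.22 TPM (median 1.17) in SAP livers, against 9.82 to 18.6 TPM (median 12.5) in AP livers. Cyp2u1 had 0.21 to 1.19 TPM (median 0.815) in SAP livers, against 3.16 to 7.64 TPM (median 4.5) in AP livers. Cyp2c40 fell to 52.5 ± 29.7 TPM in SAP livers, against 330.4 ± 69.2 TPM in AP livers, with 72.1% of its windows shared within its family. Cyp3a11, the most abundant drug-oxidising form of its family, passed by a narrow margin as a rise (703 ± 311 TPM in SAP and 443 ± 146 TPM in AP livers, limma adjusted p = 0.0493), and its call ended after median centring (adjusted p = 0.251) and when any of SAP 21, 24, 25 and 28 and AP 11, 12, 13, 16, 18 and 19 was left out (adjusted p = 0.0509 to 0.110). Cyp2b10, which the nuclear receptor CAR induces, rose to 6.85 ± 5.32 TPM in SAP livers, against 1.03 ± 1.09 TPM in AP livers. Of 44 conjugating enzymes and carboxylesterases 6 rose and 23 fell (median -0.55), with 2 risen without SAP 21 to 25 or without AP 11, 12, 13 and 16. The bile acid sulfotransferase Sult2a8 had 11.8 to 29.5 TPM (median 17.3) in SAP livers, against 107 to 164 TPM (median 118) in AP livers. Of 25 alcohol, aldehyde and flavin oxidising enzymes 3 rose, or 5 without SAP 21 to 25, and 16 fell (median -0.77). Adh1, the main alcohol dehydrogenase, had 48.7 to 166 TPM (median 82.2) in SAP livers, against 961 to 1759 TPM (median 1401) in AP livers. The aldehyde oxidase Aox1 had 3.23 to 4.89 TPM (median 3.73) in SAP livers, against 27.4 to 49.3 TPM (median 41.5) in AP livers. Aox3 had 0.45 to 2.3 TPM (median 0.85) in SAP livers, against 7.29 to 15.0 TPM (median 9.16) in AP livers. Nr1i3 (CAR), the nuclear receptor that induces many of these enzymes, had 2.39 to 5.45 TPM (median 3.65) in SAP livers, against 43.5 to 95.4 TPM (median 60.3) in AP livers, and fell by 3.75 ± 0.20; it overlaps Tomm40l on the opposite strand.

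Amino acid breakdown fell in 32 of 49 measured genes and rose in 11, or 7 without AP 11, 12, 13 and 16 (median -0.85). Amt, of the glycine cleavage system, had 1.75 to 3.01 TPM (median 2.19) in SAP livers, against 21.6 to 44.8 TPM (median 33.5) in AP livers. Bhmt2, of methionine metabolism, had 8.67 to 19.4 TPM (median 10.7) in SAP livers, against 45.9 to 63.6 TPM (median 54.97) in AP livers. Tat, which starts tyrosine breakdown and is a classical glucocorticoid target, rose instead, with 1007 to 2158 TPM (median 1510.5) in SAP livers, against 114 to 309 TPM (median 173) in AP livers. The serine dehydratase-like gene Sdsl also rose, with 66.8 to 149.9 TPM (median 82.4) in SAP livers, against 4.7 to 15.5 TPM (median 8.83) in AP livers. In the urea cycle Arg1 rose to 1102 ± 416 TPM in SAP livers, against 379.7 ± 135 TPM in AP livers. Cps1, the first enzyme of the cycle, fell to 337 ± 154 TPM in SAP livers, against 518 ± 112 TPM in AP livers, but not without SAP 26 to 29 (limma adjusted p = 0.592) or after quantile normalization (adjusted p = 0.0547). Of 17 amino acid transporters 7 rose and 8 fell, or 5 fell without SAP 26 to 29 (median -0.38). Slc7a5, an importer of large neutral amino acids, had 5.61 to 12.2 TPM (median 8.59) in SAP livers, against 0.2 to 0.65 TPM (median 0.38) in AP livers. Slc38a2 had 25.9 to 61.8 TPM (median 46.0) in SAP livers, against 3.59 to 8.71 TPM (median 6.67) in AP livers. The glutamine transporter Slc38a3, a main carrier of hepatocytes, had 71.1 to 114 TPM (median 89.4) in SAP livers, against 337 to 412 TPM (median 389.6) in AP livers. The first 2 rose and Slc38a3 fell by 2.05 ± 0.11.

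Cholesterol synthesis and uptake fell in 17 of 27 genes and rose in 5 (median -0.71), with 9 fallen and 6 risen without SAP 21 to 25 and 18 and 4 without SAP 26 to 29. Mvk, an early enzyme of the mevalonate path, had 0.66 to 5.72 TPM (median 1.74) in SAP livers, against 8.29 to 14.7 TPM (median 12.0) in AP livers. Ebp, a late enzyme, had 60.9 to 68.0 TPM (median 64.2) in SAP livers, against 126 to 151 TPM (median 137) in AP livers. Abca1, which exports cholesterol to apolipoprotein A1, rose, with 9.99 to 28.7 TPM (median 16.3) in SAP livers, against 1.35 to 2.22 TPM (median 1.69) in AP livers. Of 26 lipogenic genes, which make fatty acids and triglycerides, 5 rose and 13 fell (median -0.34). Acss2, which makes acetyl-CoA from acetate, had 0.88 to 1.67 TPM (median 1.31) in SAP livers, against 7.23 to 13.1 TPM (median 9.79) in AP livers. Elovl2, an elongase, had 9.41 to 45.2 TPM (median 18.9) in SAP livers, against 59.8 to 75.4 TPM (median 68.0) in AP livers. Their regulator Srebf1 fell to 8.47 ± 2.02 TPM in SAP livers, against 22.1 ± 4.45 TPM in AP livers. Against these, Scd1, the desaturase, had 78.7 ± 68.2 TPM in SAP and 10.6 ± 9.36 TPM in AP livers, and the fatty acid synthase Fasn 91.9 ± 36.2 TPM in SAP and 35.8 ± 8.86 TPM in AP livers, and both rose.

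Lipid storage and burning were divided. Of 23 lipid droplet and lipase genes 12 rose and 9 fell (median 0.82, and 0.11 without SAP 26 to 29). Cidec, a protein that enlarges droplets, had 102 to 221 TPM (median 151) in SAP livers, against 3.14 to 6.1 TPM (median 4.68) in AP livers. Plin2, the droplet coat protein of hepatocytes, had 687 to 1496 TPM (median 1016) in SAP livers, against 70.8 to 134 TPM (median 115) in AP livers. Fabp4 had 36.0 to 338 TPM (median 87.5) in SAP livers, against 4.14 to 8.87 TPM (median 6.63) in AP livers. The members that fell included G0s2, which inhibits the lipase ATGL, at 2.57 to 106 TPM (median 29.7) in SAP livers, against 174 to 484 TPM (median 285) in AP livers, beside Angptl8. Of 44 genes of fatty acid oxidation and ketogenesis 19 rose and 13 fell (median 0.29), with 9 risen without AP 11, 12, 13 and 16. Pdk4, which blocks entry of pyruvate into the citrate cycle, had 4.94 to 70.2 TPM (median 38.2) in SAP livers, against 0.19 to 0.51 TPM (median 0.34) in AP livers. Fabp1, the abundant fatty acid binding protein of liver, fell, with 1153 to 2957 TPM (median 1748) in SAP livers, against 8985 to 16875 TPM (median 11710.1) in AP livers. The ketone enzyme Bdh1 fell to 41.7 ± 15.2 TPM in SAP livers, against 140.1 ± 16.7 TPM in AP livers. Of 18 apolipoprotein genes 5 rose and 9 fell, with a median of -0.29 that changed sign with the scaling (-0.52 to 0.12), and the rises were 2 without SAP 26 to 29 and 3 without AP 11, 12, 13 and 16. Apoa2 fell to 16112 ± 4175 TPM in SAP livers, against 40271 ± 2012 TPM in AP livers, and Apoc4 fell to 1383 ± 325 TPM in SAP livers, against 5004 ± 222 TPM in AP livers. Apoa4 rose to 2095 ± 722 TPM in SAP livers, against 1175 ± 367 TPM in AP livers, but not without SAP 26 to 29 (limma adjusted p = 0.220) or without AP 11, 12, 13 and 16 (adjusted p = 0.0761). Apoa1 did not pass (17985 ± 2478 TPM in SAP and 19119.5 ± 2395 TPM in AP livers), except as a fall after median centring (-0.31, adjusted p = 0.0178).

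Glucose metabolism was divided in the same manner, with 11 of 25 gluconeogenesis and glycogen genes risen and 13 fallen (median -0.59). The glucose transporter Slc2a2 had 1.26 to 8.7 TPM (median 3.08) in SAP livers, against 44.2 to 58.3 TPM (median 51.9) in AP livers. Glucose-6-phosphatase (G6pc) averaged 2.85 ± 2.37 TPM in SAP and 12.1 ± 4.06 TPM in AP livers and glycogen synthase (Gys2) 28.5 ± 9.39 TPM in SAP and 94.9 ± 14.0 TPM in AP livers. Both fell, whereas Fbp1, of gluconeogenesis, rose to 569 ± 134 TPM in SAP livers, against 243 ± 89.8 TPM in AP livers. Of 29 genes of glycolysis and hypoxia 10 rose and 13 fell, with a median of -0.22 that changed sign with the scaling. Ldha, which makes lactate, had 2452 to 3384 TPM (median 2965) in SAP livers, against 167 to 368 TPM (median 222) in AP livers. Hif1a, the hypoxia factor, had 14.8 to 40.8 TPM (median 28.2) in SAP livers, against 0.87 to 1.59 TPM (median 1.36) in AP livers. Pfkfb3, the inducible activator of glycolysis, had 13.7 to 29.0 TPM (median 22.8) in SAP livers, against 0.62 to 1.38 TPM (median 1.1) in AP livers. Pfkfb1, its liver isoform, fell instead, with 0.43 to 1.68 TPM (median 0.87) in SAP livers, against 9.17 to 18.1 TPM (median 11.3) in AP livers. Vegfa, a hypoxia target, fell to 7.46 ± 2.16 TPM in SAP livers, against 16.9 ± 3.52 TPM in AP livers.

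Transcripts of the mitochondrial genome fell, and so did many nuclear genes of the respiratory chain. Of 15 measured transcripts of the mitochondrial genome 10 fell and 0 rose (median -0.92). mt-Co1, a subunit of cytochrome oxidase, had 8059 to 15707 TPM (median 11208) in SAP livers, against 26968 to 51221 TPM (median 42152) in AP livers. In complex I, mt-Nd3 had 312 to 2152 TPM (median 919) in SAP livers, against 5338 to 11797 TPM (median 7074) in AP livers. Their levels are uncertain, since 51.1 and 98.0% of their windows occur in nuclear copies or other entries. The summed share of mitochondrial genome transcripts, given above, did not overlap between the groups. That sum leaves out the copies and carries the same uncertainty. Of 76 nuclear genes of the respiratory chain 11 rose and 45 fell (median -0.42), or 7 risen without AP 11 or AP 13, 6 without SAP 26 to 29 and 4 without AP 11, 12, 13 and 16. Among those that fell was Ndufs7, a subunit of complex I, with 38.0 to 71.1 TPM (median 49.1) in SAP livers, against 154 to 225 TPM (median 178) in AP livers. Ndufv3 and Ndufs8, of the same complex, fell as well, Ndufv3 with means of 138 TPM in SAP and 452 TPM in AP livers and Ndufs8 with means of 69.4 TPM in SAP and 222 TPM in AP livers. Ndufv1 and Ndufb8, of the same complex, were among the genes with the narrowest intervals around 0, -0.22 to 0.16 and -0.19 to 0.25. Members that rose included Sdha (47.9 ± 17.6 TPM in SAP and 21.0 ± 4.91 TPM in AP livers) and Atp5a1 (263 ± 51.2 TPM in SAP and 140.0 ± 21.6 TPM in AP livers). Of 24 genes of the citrate cycle 10 rose, or 5 without AP 11, 12, 13 and 16, and 7 fell, with a median of 0.20 that median centring turned to -0.02. Idh1, the cytosolic isocitrate dehydrogenase, had 28.0 to 44.4 TPM (median 38.4) in SAP livers, against 98.6 to 138 TPM (median 109.6) in AP livers. Dld, a subunit shared by the dehydrogenase complexes, rose to 39.6 ± 12.0 TPM in SAP livers, against 12.4 ± 1.99 TPM in AP livers.

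Plasma proteins outside the acute-phase list were lower in many members. Of 25 carriers and serpins 6 rose and 14 fell (median -0.56). Serpina6, the carrier of corticosteroids, had 12.1 to 76.9 TPM (median 34.3) in SAP livers, against 326 to 413 TPM (median 384) in AP livers, and fell by 3.49 ± 0.27. Transthyretin (Ttr) and retinol-binding protein (Rbp4) circulate as a pair. Ttr fell to 2808 ± 704 TPM in SAP livers, against 5903 ± 955 TPM in AP livers. Rbp4 fell to 1934 ± 678 TPM in SAP livers, against 3481 ± 841 TPM in AP livers, with overlapping groups and no call without SAP 26 to 29 (limma adjusted p = 0.0616). Of 32 complement genes and lectins 4 rose, or 1 without SAP 26 to 29, and 13 fell (median -0.42). C3, the central component, rose to 4736 ± 760.0 TPM in SAP livers, against 2891 ± 525 TPM in AP livers. The collectin Colec11 had 1.2 to 3.66 TPM (median 2.26) in SAP livers, against 3.63 to 14.6 TPM (median 11.6) in AP livers with overlapping groups. The terminal component C8a had 91.8 to 130.3 TPM (median 118) in SAP livers, against 202 to 312 TPM (median 248) in AP livers. Cd59a, which protects cells from complement, averaged 8.39 ± 1.14 TPM in SAP and 28.2 ± 3.74 TPM in AP livers. Of 29 coagulation genes 8 rose and 11 fell, with a median of 0.07 that median centring turned to -0.16. The rises numbered 5 under the filter on AP and control livers, with a median of -0.23, and they were 4 without SAP 26 to 29 and 5 without AP 11, 12, 13 and 16. Plaur, the urokinase receptor, rose, with 4.67 to 14.5 TPM (median 10.1) in SAP livers, against 0.09 to 0.39 TPM (median 0.185) in AP livers. Proz, an inhibitory cofactor, had 11.9 to 25.1 TPM (median 14.8) in SAP livers, against 87.8 to 121 TPM (median 105) in AP livers. Heparin cofactor II (Serpind1) fell to 11.2 ± 4.8 TPM in SAP livers, against 113 ± 24.4 TPM in AP livers. Prekallikrein (Klkb1), which overlaps another gene on its own strand and is uncertain, averaged 1.81 ± 0.919 TPM in SAP and 32.0 ± 4.4 TPM in AP livers.

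The growth hormone axis and the major urinary proteins, counted as 1 list, fell in 13 of 27 genes and rose in 5 (median -0.35). After rescaling without the 50 most abundant genes 7 members fell. Igfals, the plasma partner of insulin-like growth factor 1, had 3.61 to 15.6 TPM (median 4.18) in SAP livers, against 45.5 to 98.5 TPM (median 59.8) in AP livers. Igf1 fell to 472 ± 90.0 TPM in SAP livers, against 966 ± 134 TPM in AP livers, and the receptor Ghr fell to 76.7 ± 22.9 TPM in SAP livers, against 142 ± 21.0 TPM in AP livers. Among 31 hepatocyte transcription factors and nuclear receptors 7 rose and 11 fell (median -0.13, and 0.05 without SAP 21 to 25), and 2 rose and 18 fell after median centring. The rises were 11 without SAP 21 to 25 and 3 without SAP 26 to 29 or without AP 11, 12, 13 and 16. Hnf4a, a master regulator of the hepatocyte, rose to 87.3 ± 24.6 TPM in SAP livers, against 60.6 ± 9.7 TPM in AP livers, a call that ended after median centring (limma adjusted p = 0.0643). The pregnane receptor Nr1i2 fell to 6.4 ± 3 TPM in SAP livers, against 20.6 ± 3.87 TPM in AP livers. Of 19 clock genes 8 rose and 7 fell, with a median of 0.08 that changed sign with the scaling. Per1, also a glucocorticoid target, had 8.4 to 29.0 TPM (median 18.0) in SAP livers, against 0.69 to 2.45 TPM (median 1.9) in AP livers. Dbp, an output factor of the clock, had 2.58 to 8.93 TPM (median 6.18) in SAP livers, against 37.6 to 162 TPM (median 86.6) in AP livers. Per3 fell to 0.3 ± 0.277 TPM in SAP livers, against 3.19 ± 0.539 TPM in AP livers. The deubiquitinase Usp2 had 0.29 to 1.88 TPM (median 0.825) in SAP livers, against 6.8 to 17.3 TPM (median 9.79) in AP livers. Of 28 genes of iron and haem 8 rose and 12 fell, with a median of 0.04 that changed sign with the scaling. Slc40a1, the iron exporter ferroportin, had 0.11 to 1.95 TPM (median 0.48) in SAP livers, against 5.72 to 11.9 TPM (median 8.8) in AP livers. Alad, of haem synthesis, had 50.3 to 85.6 TPM (median 68.5) in SAP livers, against 541 to 803 TPM (median 653) in AP livers. The metal importer Slc39a14 rose to 97.8 ± 35.0 TPM in SAP livers, against 14.6 ± 4.02 TPM in AP livers, and Slc11a2, another importer, rose to 16.0 ± 3.49 TPM in SAP livers, against 3.02 ± 0.379 TPM in AP livers.

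Matrix and cell shape genes held some large rises and falls. Of 23 matrix and protease genes 11 rose and 3 fell (median 0.24), with 7 risen and 4 fallen under the filter on AP and control livers (median -0.04) and 5 fallen without SAP 26 to 29. Timp1, an inhibitor of matrix proteases, had 24.7 to 56.4 TPM (median 30.9) in SAP livers, against 0.21 to 1.36 TPM (median 0.5) in AP livers. The transglutaminase Tgm2 had 139.8 to 374 TPM (median 282) in SAP livers, against 17.4 to 30.9 TPM (median 24.3) in AP livers. Col4a1, of basement membranes, had 30.9 to 75.8 TPM (median 42.2) in SAP livers, against 3.93 to 6.31 TPM (median 5.03) in AP livers. The fibrillar collagens Col1a1 and Col1a2 did not pass (-0.47 and -0.23), although Col1a1 passed as a fall of -0.61 without SAP 28 (limma adjusted p = 0.0251) and of -0.70 after median centring (adjusted p = 0.00569). Col3a1 fell to 3.53 ± 2.02 TPM in SAP livers, against 5.95 ± 2.59 TPM in AP livers, with no call without SAP 21, SAP 22, SAP 24 or AP 12 (adjusted p = 0.0527 to 0.0636) without SAP 21 to 25 (adjusted p = 0.634), or without either set of 4 AP livers (adjusted p = 0.0624 and 0.0886). Of 38 cytoskeleton and junction genes 19 rose and 9 fell (median 0.50). Tubb6, a tubulin, had 31.4 to 66.5 TPM (median 43.4) in SAP livers, against 2.03 to 4.12 TPM (median 2.5) in AP livers. The tight junction gene Cldn3 had 11.1 to 31.9 TPM (median 19.8) in SAP livers, against 144 to 206 TPM (median 178) in AP livers. Aqp9, the glycerol channel, had 5.59 to 8.5 TPM (median 7.67) in SAP livers, against 52.5 to 78.6 TPM (median 64.6) in AP livers. Cldn14, another claudin, rose to 58.9 ± 32.3 TPM in SAP livers, against 10.9 ± 1.32 TPM in AP livers.

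Neutrophil markers rose in SAP livers. Bulk RNA does not tell fewer or more cells of a type from less or more RNA per cell. All 9 neutrophil markers that could be tested rose (median 2.43), and 5 of them could be tested, and rose, under the filter on AP and control livers. S100a9, an abundant protein of neutrophils, had 92.7 to 228 TPM (median 122) in SAP livers, against 1.81 to 5.22 TPM (median 2.98) in AP livers and 1.11 to 17.6 TPM (median 3.12) in controls. Ngp, a granule protein, had 2.89 to 10.1 TPM (median 5.91) in SAP livers, against 0 to 0.2 TPM (median 0) in AP livers. The summed level of the listed neutrophil genes was 1726 to 3880 TPM in SAP livers (median 2476), 319 to 714 TPM in AP livers (median 438) and 161 to 464 TPM in controls (median 290), most of it from Wfdc21, which averaged 2278 ± 676 TPM in SAP and 449 ± 126 TPM in AP livers. Defining genes stayed too low to test, with Ly6g at 0.27 to 1.32 TPM in SAP livers and 0 to 0.33 TPM in AP livers, and Mpo at 0.02 to 0.46 TPM in SAP livers and 0 to 0.35 TPM in AP livers, with overlapping groups for both. Elane, also too low to test, overlapped as well. For the other untested markers, Trem1, Mmp9, Mmp8, Camp, Cxcr2, Csf3r and Ltf, every SAP liver stood above every AP liver. The lowest SAP and highest AP values were 0.69 and 0.07 TPM for Mmp9 and 0.26 and 0.23 TPM for Ltf. The part of neutrophils in the rise of cytokine, chemokine and NF-kB genes was not tested.

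Kupffer cell and endothelial markers were lower in part. Of 14 Kupffer cell markers 1 rose and 7 fell (median -0.51), with 4 falls without SAP 26 to 29 and 3 without AP 15, 17, 18 and 19. Their summed levels were 122 to 250 TPM in SAP livers, 94.3 to 323 TPM in AP livers and 140 to 499 TPM in controls. Cd5l had 1.81 to 7.38 TPM (median 3.5) in SAP livers, against 6.99 to 28.4 TPM (median 16.3) in AP livers. Clec4f, a lectin known from Kupffer cells, lay between 14.7 and 53.2 TPM in SAP livers (median 31.4) and between 27.9 and 91.3 TPM in AP livers (median 62.4), and for both genes the groups overlapped. Clec4f no longer passed without SAP 26 to 29 (limma adjusted p = 0.191) or without AP 15, 17, 18 and 19 (adjusted p = 0.143). The marker that rose was the scavenger receptor Marco, with 5.05 to 30.8 TPM (median 15.4) in SAP livers, against 0.25 to 1.57 TPM (median 0.785) in AP livers. In controls Marco was at 22.2 TPM in Con 3, within the SAP range, and at 0.2 to 1.81 TPM in the others. Con 3 was also the highest control for Cd14, Saa3, Cxcl9 and Ccl5, and what sets it apart was not tested. Of 12 markers of sinusoidal endothelium 3 rose and 8 fell (median -0.71). Clec4g, a lectin of these cells, had 1.53 to 4.69 TPM (median 3.12) in SAP livers, against 10.5 to 33.7 TPM (median 24.3) in AP livers, and fell by 2.53 ± 0.22. Dnase1l3, a secreted nuclease, fell to 6.28 ± 1.29 TPM in SAP livers, against 23.5 ± 5.2 TPM in AP livers, and the hyaluronan receptor Lyve1 rose, with 3.53 to 18.7 TPM (median 10.9) in SAP livers, against 0.09 to 0.63 TPM (median 0.31) in AP livers. Of 15 T and NK cell markers 0 were high enough to test, and their summed level was 3.54 to 5.65 TPM in SAP livers, 1.58 to 4.18 TPM in AP livers and 1.83 to 13.5 TPM in controls. Cd3e, a defining gene of the T cells that Cxcl9 and Ccl5 attract, stayed at 0 to 0.64 TPM in SAP livers and 0.03 to 0.22 TPM in AP livers, with overlapping groups. Other untested members differed in both directions. Prf1 was at 0.1 to 0.36 TPM in SAP livers and 0 to 0.07 TPM in AP livers, without overlap. Medians in SAP and AP livers were 1.13 and 0.395 TPM for Gzmb and 0.935 and 0.345 TPM for Gzma. They were 0.1 and 0.405 TPM for Cd4 and 0.095 and 0.32 TPM for Cd3g, with overlapping groups in all of these but Prf1.

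Other marker lists had few measured members. The stellate cell genes Dcn and Colec11 moved in opposite directions, with Dcn at 48.0 to 107 TPM (median 77.5) in SAP livers, against 9.25 to 28.3 TPM (median 21.8) in AP livers. Pf4, of platelets, rose, with 11.9 to 29.8 TPM (median 18.0) in SAP livers, against 1.2 to 3.78 TPM (median 2.44) in AP livers, while Itga2b, another platelet gene, did not pass (1.13 TPM in SAP and 1.54 TPM in AP livers), except as a fall of -0.46 after median centring (limma adjusted p = 0.0124). Cela1, the one pancreatic elastase gene that the liver also held at a testable level, fell, with 7.89 to 14.7 TPM (median 12.0) in SAP livers, against 16.4 to 25.9 TPM (median 22.0) in AP livers. The adipocyte markers Cidec and Fabp4 rose, but Adipoq, which defines adipocytes, was 10.7 TPM in SAP 28 and at most 0.8 TPM in the other SAP livers, with a highest AP value of 0.3 TPM. Cfd, an adipocyte protein also counted with complement, was 74.8 TPM in SAP 28 and at most 2.41 TPM in other SAP livers, with a highest AP value of 2.84 TPM. Cidec was at 203.5 TPM in SAP 28 and at 102 to 221 TPM in the other SAP livers. Fabp4 was at 36.0 to 81.7 TPM in SAP 21 to 25 and at 93.5 to 338 TPM in SAP 26 to 29, the set that holds SAP 28. Its call as a rise held without SAP 28. Of 11 measured genes that define hepatocytes 3 rose, Fgb among them, and 6 fell (median -0.37), or 2 fell after rescaling without the 50 most abundant genes. Among zoned hepatocyte genes, those of the pericentral zone fell in 5 of 9, or 8 without SAP 21 to 25, and rose in 1 (median -0.54), led by Cyp7a1 and the chemotactic protein Lect2, with 28.7 to 96.7 TPM (median 39.7) in SAP livers, against 309 to 462 TPM (median 394) in AP livers. Those of the periportal zone fell in 7 of 12 and rose in 4 (median -0.83), with Etnppl at 0.27 to 1.84 TPM (median 0.595) in SAP livers, against 2 to 28.5 TPM (median 9.79) in AP livers.

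**Figure D5:**
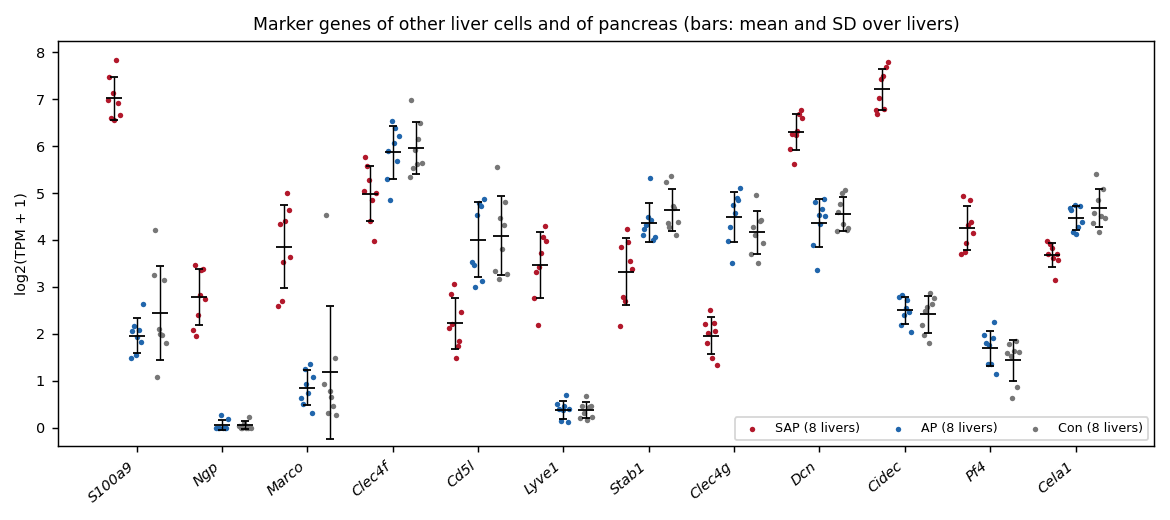
Levels of marker genes by liver, as log2(TPM + 1), with SAP in red, AP in blue and controls in grey, and bars for the mean and SD of 8 livers: neutrophils (S100a9, Ngp), Kupffer cells (Marco, Clec4f, Cd5l), sinusoidal endothelium (Lyve1, Stab1, Clec4g), stellate cells (Dcn), lipid droplets and adipocytes (Cidec), platelets (Pf4) and pancreas (Cela1). S100a9, Marco and Lyve1 lie higher in SAP than in AP, whereas Cd5l and Clec4g lie lower. For Marco the control Con 3 lies among the SAP points.

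Some abundant genes differed little between SAP and AP livers. Among genes of at least 50 TPM those whose 95% interval stayed closest to 0 included Ndufv1, Ak3, Phb2 and Ndufb8. The mitochondrial proteins Ak3 and Phb2 gave intervals of -0.16 to 0.24 and -0.23 to 0.25. These intervals hold only for the scaling used. After quantile normalization Ak3, Phb2 and Ndufb8 passed as rises of 0.18, 0.24 and 0.31 (limma adjusted p = 0.0428, 0.0170 and 0.0194), and after median centring Ndufv1 passed as a fall of -0.25 (adjusted p = 0.0140). The difference of Ak3 passed as a fall of -0.19 once trends with transcript length and GC content were removed (limma adjusted p = 0.0440).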

How the data were processed

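RNA had been extracted with Trizol from frozen livers, and sequencing libraries had been made by standard Illumina protocols, per the labels' protocols. The authors deposited 1 table of TPM for 55536 entries named by symbol in 24 libraries, a unit read from the values because no header names it. The submitters' processing notes name edgeR without a version, and for the aligner, genome build, annotation and handling of strand nothing is given in the sources used here. All 24 columns matched library titles (0 columns unused). The depth is unknown, and 8 libraries per group limit the precision.

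Values were taken as log2(TPM + 1), and the 10555 genes averaging 1 TPM or more across libraries were fitted with limma 3.58.1 in R 4.3.3, with an intensity trend and 1 coefficient for each of the 3 groups, which left 21 residual degrees of freedom from 24 libraries, adjusting p-values by the Benjamini-Hochberg method. The fit was tested on simulated data with 200 changed genes. There all groups had the spread of AP livers and most genes were unchanged, unlike in the data. The simulation therefore does not show how the fit behaves with the changes found here. Shares of TPM were compared by exact permutation tests over 12870 arrangements. Genes and lists were chosen with earlier results of these data known. By rule the text names the 12 largest rises and 12 largest falls (among genes averaging 5 TPM or more that are neither predicted, clone-named nor pseudogenes), the 3 members of each pathway list and 2 of each marker list with the smallest p, and 5 genes of at least 50 TPM with the narrowest intervals around 0. Some genes that the rule picks are not reported here. Other genes were named after their values were seen. Lists are described by counts and medians and were given no test of their own. Alternatives were other scalings, filters, pseudocounts (0.1 and 0.01), limma options, the 2 groups alone, a threshold of 0.01 and libraries left out singly or in sets.

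Transcripts of GENCODE M21 were compared in windows of 50 bases, and levels with at least 20% of windows shared with other genes are called uncertain. Besides those named as such in the report, the following genes overlap another annotated gene: on the opposite strand Acss2, Adh1, Ak3, Apoa4, Atf5, Atp5a1, Bdh1, Cebpa, Cldn3, Clec4g, Col4a1, Cyp2u1, Dbp, Derl2, Eif6, Fgg, Gbp2, H2-Q4, Il1rap, Inhbc, Irak3, Irak4, Mt2, Pfkfb1, Selp, Slc11a2, Stab1, Stat3, Tgm2, Usp2 and mt-Co1, on their own strand Akr1c14, Apoc4, Col3a1, Gbp4, Ndufb8 and Nop58, and on both Ctsl, Gclm, Hif1a, Phb2 and Srebf1. Promoter sequences are those of RefSeq for GRCm38.p6, of which 27025 were searched.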

Additional observations from a re-analysis of the deposited data

Results flagged for a closer look

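Of the genes named in the report 245 were looked at for a liver far from the rest of its group. The measure was whether the gap to the nearest liver, divided by the range of the group, passed the critical value of Dixon's test on log2(TPM + 1). Genes too low to test, such as Xist and Adipoq, and some others, such as Fn1 and F10, were not looked at in this way. Of 490 groups of 8 livers, 40 were picked out, and chance picks out about 1 in 20. AP 18 was the liver picked out most often, for 12 genes, and it lay at the low end in each. Interferon-related genes were among them, and the number of interferon-stimulated genes that fell in SAP was 15 without AP 18, against 6 with it. 

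Among SAP livers 18 values were picked out. SAP 22 lay above the other SAP livers for Ccl5 (334 TPM, others 121 to 178 TPM), Cebpd (37.8 TPM, others 16.3 to 21.6 TPM), Ctsl (2154 TPM, others 1201 to 1547 TPM) and Dnase1l3 (9.27 TPM, others 5.11 to 6.44 TPM) and below the other SAP livers for Gstm4 (1.89 TPM, others 3.73 to 5.91 TPM). SAP 24 lay above the other SAP livers for Cyp2c23 (4.22 TPM, others 0.79 to 1.88 TPM) and below the other SAP livers for Hspe1 (65.8 TPM, others 79.2 to 87.9 TPM) and Inhbb (4.24 TPM, others 7.98 to 10.8 TPM). SAP 25 lay below the other SAP livers for Socs1 (4.12 TPM, others 9.63 to 16.3 TPM). SAP 26 lay below the other SAP livers for Idh1 (28.0 TPM, others 37.4 to 44.4 TPM). SAP 27 lay above the other SAP livers for Cdk1 (2.8 TPM, others 0.93 to 1.6 TPM) and n-R5s111 (105 TPM, others 0 TPM). SAP 28 lay above the other SAP livers for Cfd (74.8 TPM, others 0 to 2.41 TPM), Col1a1 (2.71 TPM, others 0.35 to 1.01 TPM) and Col1a2 (5.15 TPM, others 1.14 to 2.5 TPM) and below the other SAP livers for Ly96 (2.04 TPM, others 3.27 to 4.51 TPM). SAP 29 lay above the other SAP livers for Bhmt2 (19.4 TPM, others 8.67 to 12.5 TPM) and G6pc (8.61 TPM, others 1.56 to 2.86 TPM).

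Among AP livers 22 values were picked out. AP 11 lay above the other AP livers for Atf5 (381 TPM, others 257 to 308 TPM), Cfd (2.84 TPM, others 0 to 0.46 TPM) and Igkc (39.3 TPM, others 11.1 to 17.6 TPM). AP 12 lay above the other AP livers for Igf1 (1258 TPM, others 815 to 996 TPM). AP 13 lay below the other AP livers for Dnase1l3 (12.6 TPM, others 20.5 to 29.5 TPM) and Fasn (19.6 TPM, others 34.3 to 52.6 TPM). AP 16 lay above the other AP livers for Stab1 (38.8 TPM, others 15.0 to 21.6 TPM). AP 18 lay below the other AP livers for Apoa1 (14198 TPM, others 18084 to 21537 TPM), Apol11b (50.5 TPM, others 238 to 746 TPM), B2m (1861 TPM, others 2717 to 3539 TPM), Cldn3 (144 TPM, others 175 to 206 TPM), Igtp (17.4 TPM, others 87.7 to 300.1 TPM), Psmb9 (18.6 TPM, others 69.5 to 158 TPM), Slc39a14 (6.63 TPM, others 12.4 to 20.04 TPM), Stat2 (10.2 TPM, others 18.1 to 24.4 TPM), Tfeb (5.31 TPM, others 6.63 to 7.86 TPM), Traf6 (0.44 TPM, others 0.73 to 1 TPM), Trp53 (7.83 TPM, others 10.7 to 13.6 TPM) and Zc3h12a (0.27 TPM, others 0.6 to 0.91 TPM). AP 19 lay above the other AP livers for Adcy1 (0.49 TPM, others 0 to 0.2 TPM) and Csf3 (0.14 TPM, others 0 to 0.03 TPM) and below the other AP livers for Inhba (0.75 TPM, others 1.41 to 1.65 TPM).

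In SAP 28 the adipocyte genes Adipoq, Retn, Plin1 and Lep, too low over all livers to be tested, were at 10.7, 6.24, 2.32 and 2.13 TPM, and Cfd and the collagens Col1a1 and Col1a2 were highest in the same liver. The part of fat or connective tissue in that library was not tested.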

How the results depend on the processing

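The number of genes that differed between SAP and AP livers stayed within 1.5 times of 7607 under each alternative run. It ran from 6652 (threshold of 0.01) to 10456 (no filter on low values, 26977 genes tested). At the threshold of 0.05 the lowest number was 6748 (without AP 11, 12, 13 and 16). The share of calls upward ran from 46.3% (without SAP 26 to 29) to 64.5% (without SAP 21 to 25), around 56.9%, and was 46.4% after median centring, 51.6% after quantile normalization and 62.4% after rescaling without the 50 most abundant genes. The median difference over all genes was -0.10, 0.006 and 0.25 under these 3 scalings. Leaving out single libraries gave 7406 to 7616 genes. The sets of 4 libraries within SAP and AP were chosen with earlier results known, and the removal of trends with length and GC content and the filter on AP and control livers after the data were seen. Of 177 genes picked by rule 168 had 1 call under each alternative run, and the others were Ak3, Ddx3y, Ighm, Itga2b, Ndufb8, Ndufv1, Phb2, Rsad2 and n-R5s111. Of the 96 other genes named 72 did so, and for most of the 24 that did not the report gives the values beside them. Col1a2 and Irak4 passed as falls after median centring, and Mup9, which rose, did not pass after it (limma adjusted p = 0.0559) or without AP 11, 12, 13 and 16 (adjusted p = 0.201). Ak3, at 0.04, turned to -0.19 once the trends with length and GC content were taken out, and Ifit2, at 1.13, to -0.049 without SAP 21 to 25, and the cause was not tested. The number of genes of at least 1 TPM, 463 higher in SAP by the means, ranged from 353.4 to 577.9 when single libraries were left out and passed without SAP 21, SAP 22 or SAP 24 (exact permutation p = 0.0457, 0.0407 and 0.0213). Among list counts, the rises of hepatocyte transcription factors fell to 2 of 31 and the falls rose to 18 after median centring. The falls of lysosome and autophagy genes were 12 after median centring, against 5, those of proteasome genes 11, against 6, and the rises of gluconeogenesis genes 7, against 11. Without AP 15, 17, 18 and 19 interferon-stimulated genes fell in 16 members, and without AP 11, 12, 13 and 16 in 1 member with 6 risen. Limma with array weights called 3 falls among these genes. No paired analysis was possible because the 2 groups share no replicate numbers. TPM keep no read counts, so the depth is unknown and no counting interval can be given.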

Other observations

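The most abundant transcripts were partly exchanged. Of the 50 most abundant genes in SAP livers and the 50 most abundant in AP livers, 35 were the same. Of those of SAP livers 21 rose and 19 fell, and of those of AP livers 6 rose and 34 fell. In both groups the major urinary protein gene Mup9 ranked first, at 66716 TPM on average in SAP livers and 40617 TPM in AP livers. Saa2 ranked second in SAP livers and at place 50 in AP livers, and Lcn2 at place 12 in SAP livers and 182 in AP livers. The levels of Mup9 and Saa2 are uncertain, since 92.6% and 31.8% of their 50-base windows occur in related genes.

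The labels name no sex of the mice. Xist, which is made from the inactive X chromosome of females, was at most 0.04 TPM in SAP livers, whereas it was 2.61 TPM in AP 16, 2.4 TPM in AP 19 and at most 0.08 TPM in the other AP livers. In controls it was 2.48 TPM in Con 1 and 3.27 TPM in Con 6. AP 16 and AP 19 also held transcripts of the Y chromosome at the level of their group, with Eif2s3y at 8.76 TPM in AP 16, the highest AP value, and 6.15 TPM in AP 19, and Ddx3y at 4.76 TPM in AP 16 and 3.19 TPM in AP 19. What sets these libraries apart was not tested. Eif2s3y, on the Y chromosome, averaged 18.5 ± 8.07 TPM in SAP and 6.54 ± 1.57 TPM in AP livers (SD, n = 8 each), a rise of 1.31 ± 0.20 on the log2 scale (limma adjusted p = 2.76e-06), while Ddx3y, also on the Y chromosome, did not pass, except as a rise of 0.46 without SAP 21 to 25 (adjusted p = 0.0233). Monocyte markers rose in 3 of 6 measured genes, or in 1 without SAP 21 to 25, and fell in 1. The members with the smallest p were Fn1, which rose, and F10, which fell. Fn1 had 319 to 613 TPM in SAP livers, against 82.0 to 159 TPM in AP livers. F10 had 93.4 to 140 TPM in SAP livers, against 214 to 290 TPM in AP livers. The whole list summed to 508 to 774 TPM in SAP and 304 to 482 TPM in AP livers. The part of hepatocytes in the levels of Fn1 and F10 was not tested. The immunoglobulin light chain Igkc, of B cells, fell.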
